A study of Mus musculus with 6 samples.

Results

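The genes described here are those of the type I interferon system: its receptors and kinases, the transcription factors they act through, the sensors of foreign or misplaced nucleic acid, the antiviral effectors, and the inhibitors that end the response. They were chosen as 47 gene symbols, and a member is every symbol that equals the gene symbol of a row of the count table. By that rule 40 genes were found among the 13730 genes of the table. Mavs, Isg15, Ifi27, Oasl2, Rnf213, Xaf1 and Usp18 were not analysed here. RNA was measured in 6 tumors, 3 Control and 3 SS. All were grown from C0321 cells mixed with Matrigel and placed in the mammary fat pad of female FVB mice aged 6 to 10 weeks. C0321 is a transplantable mesenchymal, claudin-low clone of mouse triple-negative breast cancer (TNBC) that came from FVB mice with a conditional deletion of Lfng (Lunatic Fringe, which modifies Notch receptors), so that the Control tumors carry that deletion as well, and the mice have an intact immune system. SS mice received sulindac sulfide, the active metabolite of the anti-inflammatory drug sulindac, by mouth at 60 mg/kg each day for 14 days after a palpable mass had formed. The labels call it a sulfate, and the control treatment is named saline in the series description and vehicle in the paper. The comparison asks whether interferon genes of the tumor differed with treatment.

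Type I interferons are secreted proteins that cells make after sensors such as RIG-I, MDA5 or STING meet RNA or DNA in the wrong place. They bind a receptor built from Ifnar1 and Ifnar2, whose kinases Jak1 and Tyk2 phosphorylate transcription factors such as Stat2. With Irf9, Stat2 takes part in a complex that binds the interferon-stimulated response element (ISRE) of antiviral genes. Interferon gamma uses another receptor, Ifngr1 with Ifngr2, and the kinases Jak1 and Jak2, and acts through a different element, the gamma-activated site (GAS). In tumors this system links damaged or dying cells to dendritic cells and T-cells.

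Estimated counts totalled between 8468948 and 24441553 per tumor, with a median of 20486405 in Control and 12071376 in SS tumors, so that 1 count is worth between 0.041 and 0.119 CPM (counts per 1000000 counts of the library, whose total is scaled by a TMM factor). Lfng, the gene deleted in the line, was at 4.64 to 6.39 CPM, and whether those counts lie outside the deleted part was not tested. Krt8, a keratin of the carcinoma label, was at 417 to 544 CPM in the 6 tumors, whereas Epcam, an epithelial marker, was at 0.041 to 2.98 CPM. Control tumor 1 stood apart in markers of other tissue, with summed CPM of 82.4 for 3 T-cell markers against 11.7 to 33.3 in the other tumors, and of 47.2 for 6 adipocyte markers against 0.041 to 19.7. Markers of macrophages (8 of 8 measured) summed to between 723 and 859 CPM in Control and between 765 and 953 CPM in SS tumors. Of 5 erythroid markers tested, 4 were lower in SS with an unadjusted p under 0.05 by edgeR, beside 3.16% of all genes. Their sums overlapped, at 1888 to 3919 CPM in Control and 852 to 1932 CPM in SS tumors. The 2 B-cell markers measured summed to 15.15, 1.23 and 0.123 CPM in Control and 0 in each SS tumor, and were not tested. In bulk tumor RNA, fewer cells of a type and less RNA per cell cannot be told apart.

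None of the listed interferon genes passed the test for a difference between SS and Control tumors. Of the 40 genes, 27 had enough counts for edgeR's quasi-likelihood test, and 0 of these had an unadjusted p under 0.05, where 6.36% of the 10902 genes tested did. The number was also 0 by DESeq2's Wald test, where 6.31% of all genes passed, by limma-voom, where 6.99% did, and by edgeR with the replicate number as a block, where 5.9% did. With quantile normalization and limma it was 1, Trim25, where 6.13% of all genes passed. The adjusted p of the 27 genes lay between 0.792 and 0.997 in edgeR's test with Benjamini-Hochberg adjustment, and 0% of all genes tested had an adjusted p under 0.05. By DESeq2, 0.321% of all genes, or 35, had one, and 0 members did. The log2 fold change, SS against Control, was positive for 18 members, or 66.7%, beside 49.8% of all genes tested, and negative for 9, with a median of 0.14 beside -0.0013 over all genes tested. The median size of the change regardless of sign was 0.20 for the members and 0.19 for all genes. In 2 tested members, Irf2 and Trim25, all SS tumors lay above all Control tumors, and in 0 all lay below. Over all genes tested, the groups did not overlap for 12.9%, 6.55% above and 6.38% below.

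With each tumor left out, the members' counts are given beside the share of all genes in the same fit. Without Control tumor 1 the groups of 7 members did not overlap (25.4% of all genes) and Irf8 alone had an unadjusted p under 0.05 (7.81% of all genes). Without Control tumor 2 the numbers were 4 members (21.3%) and Tmem173 alone (4.97%), and without Control tumor 3 they were 3 (21.1%) and 0 members (4.58%). On the other side, 4 members did not overlap without SS tumor 1 (22.6%), where 0 passed the unadjusted threshold (4.93%). Without SS tumor 2 there were 4 (23.1%), and Oasl1 alone passed (5.58%). Without SS tumor 3 there were 8 (23.8%), and Irf2 and Eif2ak2 passed (5.9%). No member had an adjusted p under 0.05 in any of these edgeR fits.

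**Figure D1:**
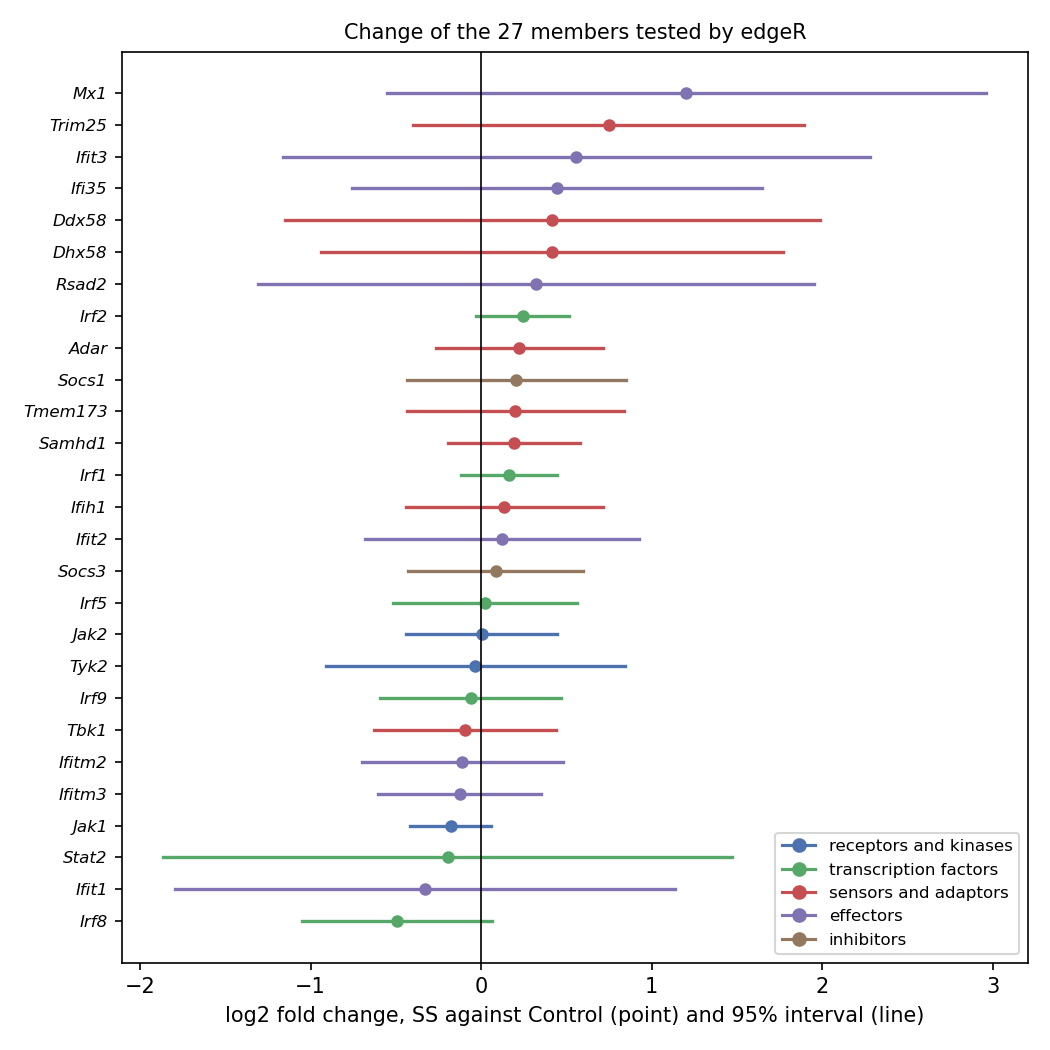
Log2 fold change of the 27 members tested by edgeR (horizontal axis, SS against Control; points), ordered by size, with 95% intervals (lines) and colors for the role of each gene. Every interval includes 0, from Irf8 at -0.49 to Mx1 at 1.20.

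How large a change the data could have missed differed widely between members. The 95% interval of the log2 fold change lay within 1 in either direction for 17 of the 27 genes, and within 0.5 for Jak1, Jak2 and Irf1. An interval within 1 excludes a doubling or a halving for 1 gene taken alone. No allowance was made for the 27 intervals, so this does not hold for all 17 genes jointly. The standard error ran from 0.10 for Jak1 to 0.76 for Mx1, with a median of 0.25. The remaining 10 tested genes, most of them effectors or sensors of low level, had intervals that reached beyond 1. The other 13 members, with 10 to 81 counts summed over the 6 tumors, were not tested, and a difference in them was not detectable at this depth unless it was very large. Of the 40 members, 14 had a mean under 1 CPM, or 35% against 23.0% of all genes, and the median over the members of their mean CPM was 1.44 against 7.53 over all genes. A low level was not read as absence of the RNA, because B2m, the light chain of MHC class I that nearly every nucleated cell makes, was itself at only 1.66 to 3.84 CPM in this table.

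**Figure D2:**
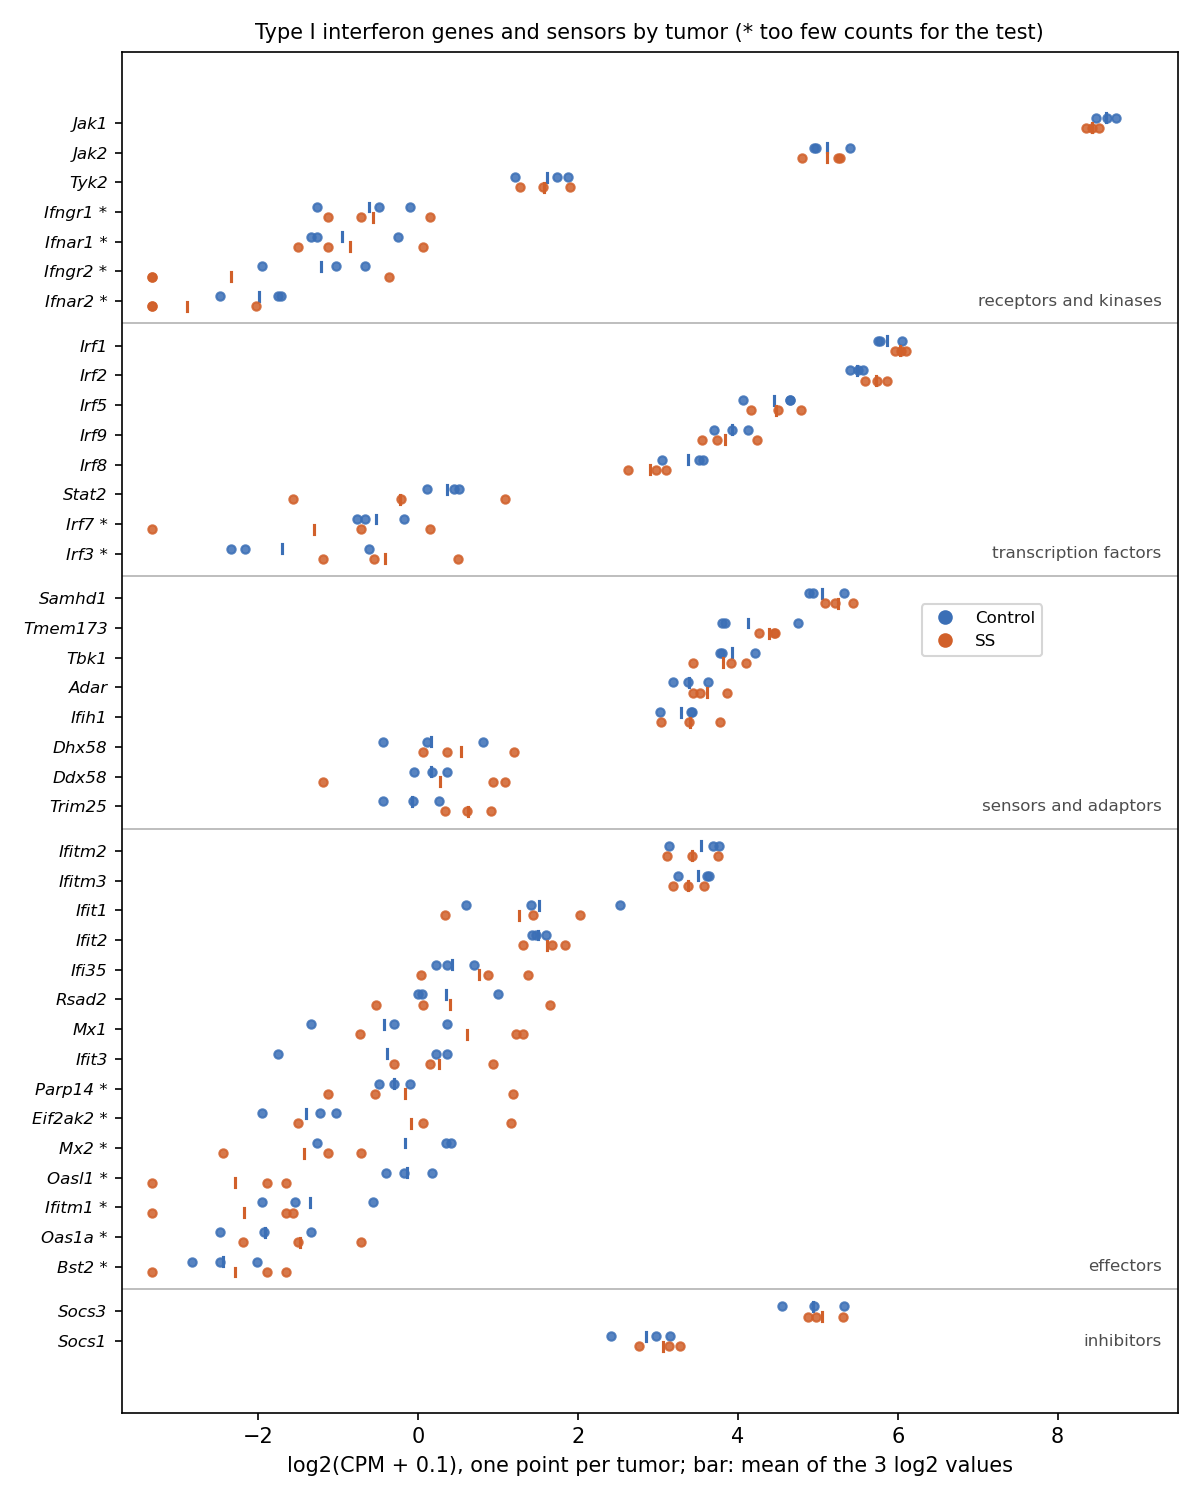
Level of the 40 members in each tumor (horizontal axis, log2 of CPM plus 0.1; Control in blue, SS in orange; bars are means of the 3 log2 values), by role and ordered by mean level within a role. An asterisk marks the 13 genes with too few counts for the test, and points at the left edge are tumors with 0 counts, some of which cover each other. Irf2 and Trim25 are the tested genes whose orange points all lie to the right of the blue points, and for Oasl1 they all lie to the left.

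Among receptors and kinases, Jak1 and Jak2 had many counts, Tyk2 few, and the receptor chains fewest. Jak1, the kinase that type I and type II interferon receptors share, is on chromosome 4 from 101151974 to 101265283 (GRCm38, minus strand). It was at 424, 356 and 395 CPM in Control tumors 1, 2 and 3 and at 344, 328 and 365 CPM in SS tumors 1, 2 and 3. The groups overlapped, since SS tumor 3 lay above Control tumor 2. The change was -0.18 ± 0.10 (SE) on the log2 scale, with a 95% interval from -0.42 to 0.057 (edgeR, adjusted p = 0.813). Per kilobase of transcript Jak1 had the highest level of all members, 75.2 CPM per kilobase. The tool that estimated the counts is not given in the sources used here, and the low level of B2m limits any order of levels between genes. Jak2, the kinase of the interferon gamma receptor, averaged 34.9 ± 6.48 CPM in the Control group and 34.9 ± 6.12 CPM in the SS group (SD, n = 3 each). Its 95% interval ran from -0.44 to 0.45 on the log2 scale. Tyk2, the partner of Jak1 at the type I receptor, was at 2.21 to 3.58 CPM in Control and 2.32 to 3.63 CPM in SS tumors, with a 95% interval from -0.91 to 0.84 on the log2 scale.

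The receptor chains Ifnar1, Ifnar2, Ifngr1 and Ifngr2 lay at or under 1.01 CPM in all 6 tumors and could not be tested. Ifnar1 was at 0.316, 0.295 and 0.738 CPM in Control and 0.942, 0.357 and 0.253 CPM in SS tumors, and the groups overlapped. Ifnar2 had 12 counts in all, with 0 counts in SS tumors 2 and 3, and Ifngr2 had 0 counts in SS tumors 1 and 2 but 0.675 CPM in SS tumor 3. In the smallest library, that of SS tumor 2, a count of 0 allows up to 3 counts, or 0.357 CPM, so these zeros do not part the groups. Ifnar2 and Ifngr2, with 0.0876 and 0.0791 CPM per kilobase, were the lowest members per length, Ifngr2 the lowest of all.

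Of the transcription factors, Irf2 came closest to a difference upward and Irf8 downward. Irf2, which binds the same elements as Irf1 and is known to hold its action back, is on chromosome 8 from 46739745 to 46847459. It was at 45.1, 42.4 and 47.2 CPM in Control tumors and at 53.4, 58.0 and 48.1 CPM in SS tumors. The SS tumors all lay above the Control tumors, with SS tumor 3 only just so (p = 0.1 in a two-sided exact permutation test, where 3 against 3 tumors can give nothing smaller). The means were 44.9 ± 2.44 and 53.2 ± 4.95 CPM (SD, n = 3 each), which is 0.24 ± 0.12 (SE) on the log2 scale (edgeR, unadjusted p = 0.0765, adjusted p = 0.792). Irf2 and Trim25 were named for their separation after their values had been seen, as were Irf8, Mx1 and Oasl1 below.

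Irf8, a factor that dendritic cells and other myeloid cells need for their development, was at 8.20, 11.8 and 11.3 CPM in Control tumors and at 7.76, 8.46 and 6.08 CPM in SS tumors. Only Control tumor 1 reached into the range of the SS tumors. The log2 fold change was -0.49 with a 95% interval from -1.05 to 0.061 (edgeR, unadjusted p = 0.0740, adjusted p = 0.792). Without Control tumor 1 it was -0.64 (edgeR, unadjusted p = 0.0342, adjusted p = 0.597). Beside it, dendritic cell markers (6 of 8 measured, with Xcr1, which marks the cross-presenting type, at 0 in SS tumors 1 and 3) summed to between 52.4 and 83.5 CPM in Control and between 95.4 and 184 CPM in SS tumors. Most of that sum was Itgax, the gene of CD11c, which macrophages also express, at 49.4 to 66.7 CPM in Control and 89.5 to 173 CPM in SS tumors. Of the 4 markers tested, Itgax alone had an unadjusted p under 0.05 by edgeR. The others, Flt3, Zbtb46, Xcr1, Ccr7 and Batf3, overlapped between the groups. Siglech, a marker of the plasmacytoid dendritic cells that make most interferon alpha, was at 0 to 2.37 CPM in Control and 0 to 1.09 CPM in SS tumors. The part of these cells in the level of Irf8 was not tested.

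Irf1, a factor induced by interferon gamma above all, had the highest level of the group, 54.7, 54.0 and 66.3 CPM in Control and 65.5, 68.5 and 62.2 CPM in SS tumors. Control tumor 3 lay within the range of the SS tumors, and the change was 0.16 ± 0.12 (SE) on the log2 scale, with a 95% interval from -0.12 to 0.45 (edgeR, adjusted p = 0.867). Irf5, a myeloid factor downstream of Toll-like receptors, and Irf9, the DNA-binding part of the complex at the ISRE, had log2 fold changes of 0.024 and -0.062 with intervals from -0.51 to 0.56 and from -0.59 to 0.47. Stat2 was low and uneven, at 0.984 to 1.33 CPM in Control tumors against 2.03, 0.238 and 0.760 CPM in SS tumors. SS tumor 1 was thus the highest of all 6 and SS tumor 2 the lowest. Irf3 and Irf7, which switch on the interferon genes themselves, had 35 and 52 counts over all tumors and were not tested.

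The group of sensors and adaptors also holds Adar and Samhd1, which act on RNA and nucleotides rather than sense them. Of its 8 tested genes, 7 had a positive log2 fold change, beside 49.8% of all genes tested. Their median was 0.21 with 0 past the unadjusted threshold, beside a median of 0.22 for the effectors. Of 16 further genes of DNA and RNA sensing that were tested, 7 were positive, and their median was -0.11. Samhd1, which degrades the nucleotides that viruses need for DNA, had the highest level, 39.9, 30.7 and 29.5 CPM in Control and 43.3, 36.9 and 34.1 CPM in SS tumors. The ranges overlapped in the span that Control tumor 1 covers, and the change was 0.19 ± 0.17 (SE) on the log2 scale, with a 95% interval from -0.19 to 0.58 (edgeR, adjusted p = 0.890). Trim25, a ubiquitin ligase that activates RIG-I, had all SS tumors, at 1.16, 1.79 and 1.44 CPM, above all Control tumors, at 1.10, 0.638 and 0.861 CPM. SS tumor 1 and Control tumor 1 almost met. On 96 counts in all, the change was 0.75 ± 0.49 (SE) on the log2 scale (edgeR, adjusted p = 0.854), and its 95% interval ran from -0.40 to 1.89.

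Tmem173, the gene of STING, the adaptor for DNA sensed in the cytosol, was at 13.8, 26.8 and 14.2 CPM in Control and at 21.7, 19.2 and 22.0 CPM in SS tumors. The SS tumors lay close together and Control tumor 2 was the highest of all. Its log2 fold change of 0.20 had a 95% interval from -0.43 to 0.83. Without Control tumor 2 it was 0.58 (edgeR, unadjusted p = 0.0156, adjusted p = 0.924). Ifih1, the gene of the RNA sensor MDA5, averaged 9.76 ± 1.48 CPM in the Control group and 10.7 ± 2.78 CPM in the SS group (SD, n = 3 each). Ddx58, the gene of RIG-I, was lower at 0.868 to 1.19 CPM in Control tumors, and SS tumors 1 and 2 lay above that range at 1.81 and 2.03 CPM while SS tumor 3 lay below it at 0.338 CPM. Adar, which edits double-stranded RNA so that sensors ignore it, and Tbk1, the kinase that sensors use to activate Irf3, had log2 fold changes of 0.22 and -0.097. Dhx58, a regulator of the RNA sensors, was at 0.41 with a 95% interval from -0.94 to 1.77.

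The effectors are the genes most often read as a sign of interferon action, and several carry the ISRE in their promoters. Its letters, GAAA and GAAA with NN between them, searched on both strands in the 250 bases before each RefSeq transcript start (GRCm38.p6), were found in 9 of the 35 members with a promoter in the RefSeq table, or 25.7%, beside 3.46% of all 27025 genes. The GAS letters TTCNNNGAA were found in 10 of the 35, or 28.6%, beside 8.13% of all genes. In 1 member start a match to one element overlapped a match to the other. The promoters printed here are those of 3 effectors with low but tested levels, of the inhibitor Socs1, and of Irf2, so that the element can be seen beside the values that follow. Each shows 90 bases of the gene's own strand taken from the 250 before the start, ending short of it, with every match to the ISRE letters in capitals. They lie at chr19:34640754-34640843 (Ifit1, plus strand), chr19:34583350-34583439 (Ifit3, plus), chr12:26456523-26456612 (Rsad2, minus), chr16:10785567-10785656 (Socs1, minus) and chr8:46739495-46739584 (Irf2, plus).
Ifit1: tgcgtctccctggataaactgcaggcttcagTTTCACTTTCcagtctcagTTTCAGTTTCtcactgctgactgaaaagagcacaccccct
Ifit3: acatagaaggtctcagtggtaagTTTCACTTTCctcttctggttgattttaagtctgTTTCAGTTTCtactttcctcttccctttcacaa
Rsad2: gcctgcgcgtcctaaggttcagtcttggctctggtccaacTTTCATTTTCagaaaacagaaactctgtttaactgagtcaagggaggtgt
Socs1: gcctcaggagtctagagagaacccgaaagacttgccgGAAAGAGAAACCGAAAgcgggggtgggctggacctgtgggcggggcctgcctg
Irf2: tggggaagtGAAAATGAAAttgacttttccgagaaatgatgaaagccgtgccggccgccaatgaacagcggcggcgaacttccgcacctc
Ifit1 and Ifit3 have 2 matches each on the opposite strand, Rsad2 has 1 there, Socs1 has 2 that overlap, and Irf2 has 1. The match nearest to the start ends 75 bases before it in Ifit1, 112 in Ifit3, 110 in Rsad2, 67 in Socs1 and 231 in Irf2. A match is a description of letters and not of binding.

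The 7 members with the ISRE letters that were tested had a median log2 fold change of 0.21, from -0.33 to 0.56, with 4 positive, and the 17 tested members whose promoters lacked the letters had a median of 0.085, from -0.49 to 0.75, with 11 positive. Mx1, Dhx58 and Tmem173, at 1.20, 0.41 and 0.20, were tested but had no promoter in the RefSeq table and are in neither group. Ifit1, whose protein binds viral RNA that lacks the cap of the host, was at 1.42, 2.55 and 5.66 CPM in Control and 1.16, 2.62 and 3.97 CPM in SS tumors. The spread within each group was larger than the difference of the means, and the log2 fold change was -0.33 with a 95% interval from -1.80 to 1.14. Ifit3 and Rsad2, the latter the gene of viperin, had 88 and 119 counts over all tumors, and their log2 fold changes were 0.56 ± 0.74 and 0.32 ± 0.70 (SE). SS tumor 3 was the highest of all 6 tumors for Rsad2 at 3.04 CPM, and SS tumor 2 the lowest at 0.596 CPM. Ifit2, the third gene of this family measured here, was even across tumors, at 2.74 ± 0.187 CPM in the Control group and 2.98 ± 0.544 CPM in the SS group (SD, n = 3 each).

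The effectors with the highest levels were Ifitm2 and Ifitm3, membrane proteins that keep viruses from fusing with the cell. Ifitm2 was at 12.9, 13.5 and 8.74 CPM in Control and 10.7, 13.3 and 8.53 CPM in SS tumors, so that the groups covered nearly the same range. The change was -0.11 ± 0.25 (SE) on the log2 scale, with a 95% interval from -0.70 to 0.48 (edgeR, adjusted p = 0.947). Ifitm3 averaged 11.3 ± 1.66 CPM in the Control group and 10.4 ± 1.37 CPM in the SS group (SD, n = 3 each), and its log2 fold change, -0.13, had a 95% interval from -0.60 to 0.35. These genes and Ifitm1 are similar copies side by side on chromosome 7, so that reads could be split between them and their single values are uncertain. Among the 27 tested members the largest log2 fold change was that of Mx1, an antiviral GTPase, at 0.710, 0.295 and 1.19 CPM in Control and 2.25, 2.38 and 0.507 CPM in SS tumors. SS tumors 1 and 2 lay above all Control tumors and SS tumor 3 lay within their range, and the change was 1.20 ± 0.76 (SE) on the log2 scale (edgeR, adjusted p = 0.843). Mx2, its neighbor on chromosome 16, was at 0.316 to 1.23 CPM in Control and 0.0844 to 0.507 CPM in SS tumors and was not tested. Ifi35, a partner of other interferon-induced proteins, had a change of 0.44 on the log2 scale with a 95% interval from -0.76 to 1.64.

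Oasl1, which holds back the translation of Irf7, was the only one of the 40 members with all SS tumors below all Control tumors, where 6.15% of the 13730 genes of the table were. It is on chromosome 5 from 114923240 to 114937912 and had 13, 16 and 16 counts in Control and 3, 0 and 2 counts in SS tumors. In CPM these were 1.03, 0.786 and 0.656 against 0.217, 0 and 0.169. Summed over the groups, the 45 Control and 5 SS counts gave a ratio of 5.33 per unit of library, with an exact 95% interval from 2.12 to 17.2 that covers counting error only. Its counts were too few for the filter of the main test. When every gene with at least 10 counts over the tumors was tested, Oasl1 had a log2 fold change of -2.51 (edgeR, unadjusted p = 0.0389, adjusted p = 0.828), where 3.20% of those genes were lower with an unadjusted p under 0.05. Oasl1 met that filter only through its Control counts, so this p-value is a description and no support for a difference. Eif2ak2, the gene of PKR, the kinase that halts translation on double-stranded RNA, was at 0.158, 0.393 and 0.328 CPM in Control and 0.942, 2.14 and 0.253 CPM in SS tumors, with SS tumor 3 inside the Control range. Parp14, Oas1a, Bst2 and Ifitm1 had 81, 22, 10 and 26 counts, and their groups overlapped. Parp14 owed its SS mean of 1.04 CPM to SS tumor 1, at 2.17 CPM, while SS tumors 2 and 3 lay below all Control tumors.

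Socs1 and Socs3 encode inhibitors that cytokines induce and that shut the Jak kinases off. Socs3 was at 31.0, 23.3 and 40.1 CPM in Control and 31.3, 39.7 and 29.4 CPM in SS tumors, with the SS range inside the Control range. The change was 0.085 ± 0.22 (SE) on the log2 scale, with a 95% interval from -0.43 to 0.60 (edgeR, adjusted p = 0.953). Socs1 averaged 7.26 ± 1.84 CPM in the Control group and 8.33 ± 1.51 CPM in the SS group (SD, n = 3 each), and its log2 fold change was 0.21 with a 95% interval from -0.43 to 0.85.

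**Figure D3:**
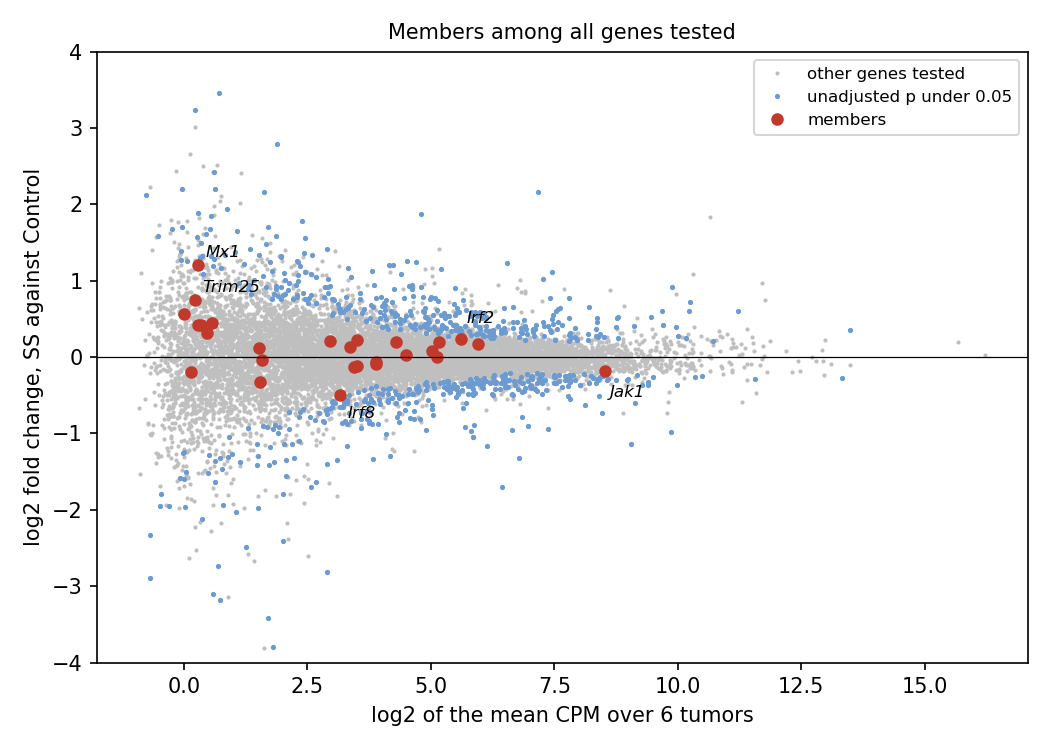
Log2 fold change, SS against Control (vertical axis), against the log2 of the mean CPM over 6 tumors (horizontal axis) for the 10902 genes tested, of which 3 lie beyond the axis limit of 4. The 27 members (red) lie within the grey cloud of genes, and 0 of them is among the genes with an unadjusted p under 0.05 (blue).

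A further list of 81 names for interferons, sensors, effectors and inhibitors held 53 genes of the table, of which 40 were tested. Of these 40, 20 had a positive log2 fold change, 0 passed the unadjusted threshold of edgeR in either direction, beside 3.19% higher and 3.16% lower among all genes, and the median was -0.0075. The smallest adjusted p among them was 0.790. The 9 interferon genes on the list (Ifna1, Ifna2, Ifna4, Ifnb1, Ifne, Ifnk, Ifng, Ifnl2 and Ifnl3) were not analysed here.

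A pair of interferon-induced genes outside both lists is given as a description. Gbp2, a GTPase that interferon gamma induces above all, was at 36.3, 41.5 and 45.6 CPM in Control and at 63.3, 54.6 and 72.02 CPM in SS tumors. All SS tumors lay above all Control tumors, and the difference was 0.62 ± 0.15 (SE) on the log2 scale (edgeR, unadjusted p = 0.00295, adjusted p = 0.679; DESeq2, adjusted p = 0.0546). Cxcl9, a chemokine of the same response that draws T-cells, had 1, 1 and 0 counts in Control and 11, 6 and 15 counts in SS tumors. These again did not overlap, but the counts were too few for the main test. With the filter of 10 counts its edgeR values were an unadjusted p = 0.0058 and an adjusted p = 0.828. Cxcl9 met that filter only through its SS counts, so these values are a description and no support for a difference. Both genes were picked after their values had been seen, neither passed an adjusted p of 0.05, and 6% of all genes with a row had all SS tumors above. Among all genes tested, 3.19% were higher with an unadjusted p under 0.05 by edgeR. Irf1, a member that interferon gamma also induces above all, had overlapping groups and a log2 fold change of 0.16.

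The genes of the 81-name list with the smallest unadjusted p were Irf4, Nlrx1, Dhx36, Ptpn11, Tor3a, Pias3, Ly6e and Irf2bp1, with adjusted p between 0.790 and 0.860 in edgeR's test. Irf4, a factor of lymphocytes and of some dendritic cells and macrophages, was at 12.2, 4.62 and 4.92 CPM in Control and 12.8, 13.6 and 11.6 CPM in SS tumors. Control tumor 1, which also held the most T-cell markers, lay with the SS tumors. Nlrx1, a mitochondrial protein that dampens antiviral signals, had all SS tumors, at 4.93 to 5.83 CPM, above all Control tumors, at 1.93 to 4.34 CPM. Pias3, an inhibitor of STAT proteins, also had all SS tumors above, at 33.1 to 36.2 CPM against 29.3 to 31.8 CPM. They were 2 of the 40 tested genes of the list, beside 6.55% of all genes tested. Trim21 and Parp9, with 19 and 20 counts over the tumors, also had all SS tumors above but were not tested, which makes 4 of the 53 genes, beside 6% of all genes with a row. Ptpn11, a phosphatase of cytokine receptors, and Dhx36, a helicase that also serves as a sensor, had log2 fold changes of -0.20 and -0.32 with overlapping groups. Tor3a and Ly6e, both induced by interferon, were at -0.29 and 0.42, and Irf2bp1, a corepressor that binds Irf2, was at 0.28 on the same scale, also with overlapping groups.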

How the data were processed

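Stranded, polyadenylated libraries of 6 tumors were sequenced from both ends (75 nucleotides). The deposited values are estimated counts of 20648 RefSeq transcripts, not normalized by the authors, after removal of entries with very low counts. The submitters' processing notes name CASAVA 1.8.1, STAR 2.5.3a, Bowtie2 2.2.5 and the build mm10 (GRCm38). The counting tool is not given in the sources used here. Counts of transcripts with the same gene symbol were added and then rounded, and 21 symbols stored as dates were restored from accessions. Mice were not identified beyond the numbers in the labels, and p-values measure the spread between these tumors.

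SS and Control were compared with edgeR 4.0.16 under R 4.3.3 (TMM, filter on low counts, quasi-likelihood test, Benjamini-Hochberg adjustment over 10902 genes), since the quantile normalization and t statistic of the study take no account of counts; quantile values were tested with limma 3.58.1 instead, as an alternative. CPM uses TMM factors. Standard errors are the log2 fold change over the root of F, and 95% intervals use 7.71 degrees of freedom. Levels per kilobase use GENCODE M21 lengths for 57 of 59 transcripts, the mean of the gene for the others. Intervals of counts and floors of 3 counts cover counting error only. Same-numbered tumors are different mice, with correlations of their deviations from the group means of 0.116, 0.0205 and 0.0767. The alternatives were RLE and upper-quartile scaling, a filter of 10 counts over the tumors, DESeq2 1.42.0, limma-voom, the quantile route on log2(CPM + 1), the replicate number as a block, thinned libraries and each tumor left out. The rule set full statistics for the member of each role with the highest CPM and any with an unadjusted p under 0.05. Those of other members were added after their values were seen. Of the other pathway genes, the rule named the interferons and the 8 with the smallest p, and 1 other gene that is not reported here. The members and lists were chosen with earlier results of these data known.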

Additional observations from a re-analysis of the deposited data

How the results depend on the processing

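No member passed an adjusted p of 0.05 (a count of 0) in any of the 14 alternatives, of which DESeq2 called 35 of all genes and the others 0. The count of 0 at an unadjusted p under 0.05 was 1 with the filter of 10 counts over the tumors (Oasl1), where 5.75% of all genes passed. It was 1 with quantile normalization and limma (Trim25, log2 fold change 0.41, adjusted p = 0.798), where 6.13% did. With each tumor left out in turn it was from 0 to 2, where 4.58% to 7.81% did. The members were Irf8 without Control tumor 1, Tmem173 without Control tumor 2, Oasl1 without SS tumor 2, and Irf2 and Eif2ak2 without SS tumor 3. Oasl1 and Eif2ak2 are not among the 27 and entered these fits mainly through the group where they are high. The cause of these moves was not tested. The replicate numbers are shared only as labels. With them as a block the count was 0, where 5.9% of all genes passed, and the median log2 fold change of the members was 0.11. That median lay between 0.085 and 0.15 in all alternatives. The 2 tested members whose groups did not overlap became 3 to 8 with a tumor left out, 8 of them without SS tumor 3 and 7 without Control tumor 1, while the share of all genes moved from 12.9% to between 21.1% and 25.4%. Those counts are over all members tested in the fit concerned, which can be more than the 27. Of the 27 members, 14 kept their sign in each alternative that tested them; with thinned libraries 23 were tested, without Ifit3 and Mx1 of those 14. With each tumor left out, the log2 fold change ran from -0.076 to 0.16 for Jak2, -0.22 to 0.11 for Tyk2, -1.21 to 0.23 for Stat2, -0.15 to 0.17 for Irf5, -0.29 to 0.074 for Irf9, -0.080 to 0.30 for Ifih1, -0.031 to 0.82 for Dhx58, -0.25 to 0.067 for Tbk1, -0.79 to 0.36 for Ifit1, -0.0035 to 0.26 for Ifit2, -0.28 to 0.032 for Ifitm2, -0.66 to 0.74 for Rsad2 and -0.092 to 0.30 for Socs3. Among those that kept their sign, the range was 0.065 to 0.88 for Ddx58, 0.036 to 0.58 for Tmem173, 0.083 to 0.90 for Ifit3, 0.087 to 0.74 for Ifi35, 0.015 to 0.36 for Socs1, 0.077 to 0.35 for Adar, 0.088 to 0.34 for Samhd1, 0.11 to 0.27 for Irf1, -0.24 to -0.12 for Jak1 and -0.24 to -0.039 for Ifitm3. Jak2, at 0.0027, was also at -3.21e-05 with RLE factors, -0.0031 with upper-quartile factors, -0.0023 with the filter of 10 counts and -0.0053 with the quantile route, and Tyk2 was at 0.0011 with limma-voom. Depth limits the 13 members that were not tested and the effectors near 1 CPM.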

Other observations

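Several members are split over RefSeq transcripts in the table, and the estimated shares differ in how much they can tell. The shares of the 2 Jak2 transcripts were 69.2% and 30.8% in each of the 6 tumors, and those of Ifit2 (85.9% and 14.1%), Mx2 (52.5% and 47.5%) and Tmem173 (64.7%, 31.0% and 4.39%) were also the same in every tumor, so that these carry no information on which transcript was used. For Irf9, a part of the complex that binds the ISRE, the shortest of its transcripts held 79.2%, 32.3% and 75.4% of the gene's counts in Control tumors and 54.3%, 76.9% and 53.5% in SS tumors, with overlapping groups. The level of Mx1 is the sum of 2 transcripts. One of them held 84.0% in Control tumors 1 and 3 and in SS tumors 2 and 3. It held 27.8% in SS tumor 1 and 3.98e-07% in Control tumor 2, so the high values of SS tumors 1 and 2 came from different transcripts. For Socs1, the longer transcript held 11.2%, 22.3% and 0.994% in Control and 0.994%, 0.994% and 0.354% in SS tumors. Control tumors 1 and 2 stood above the other tumors, and Control tumor 3 had the same share as SS tumors 1 and 2. A share that repeats in this way carries no information on which transcript was used. The longer transcript had only 0.404 to 35.4 estimated counts per tumor, so no difference between the groups is read from it.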
